A study of Mus musculus with 12 samples.

Results

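The baseline of the control cultures was described from the 448 transcripts that the authors listed in both of their expression tables, out of 3356 listed in either. Members were chosen by the RefSeq transcript identifier alone: it had to occur among the 648 transcripts of the overexpression table and the 3156 of the knockdown table. The cells were female germline stem cells (FGSCs), germline cells of the ovary that can be kept in culture, from C57BL/6 mice. RNA sequencing covered 12 libraries in 4 groups of 3: cells overexpressing Usp7, the control of that overexpression, cells with Usp7 knocked down, and the control of that knockdown. Usp7 encodes a deubiquitinase, an enzyme that removes ubiquitin from proteins, and it was not analysed here. The 6 control libraries are the subject. Both control groups share strain and cell type and carry no other allele or agent named in the labels, which do not say which vectors, lines, passages or days they came from. Nothing in the labels says that replicates were separate cultures, so the spread between them may be technical.

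The 2 sets of control cultures, which differ in their labels only by the experiment they belong to, are set side by side here. Construct type, table and any batch cannot be told apart from the control group. The authors selected each table's transcripts with tests that used these controls. The control difference is therefore not independent of that selection, and no p-value is given. Each table was also normalized on its own.

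Several gene programmes recur among the shared transcripts. PIWI proteins bind piRNAs, small RNAs that silence transposons in germ cells, and tudor-domain proteins and helicases help make and use them. Meiotic cohesins and the synaptonemal complex hold chromosomes together during meiosis. The axoneme is the microtubule core of cilia and sperm tails, moved by dynein arms. ATF4 is a transcription factor that the integrated stress response and the unfolded protein response raise, and it drives genes of amino acid supply and of stress control.

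For the gene groups the results turn on, the promoters of Piwil1, Trib3 and Chac1 are shown, 300 bases each, from 250 bases before to 50 after a start in the RefSeq promoter table (GRCm38.p6). For Piwil1 that start lies inside the gene span given below, not at its end. Piwil1 stands for the piRNA genes, and Trib3 and Chac1 for the ATF4 target genes. Letters are in capitals where a searched motif matches on either strand: TGATGNAA, the core of the element that ATF4 binds with C/EBP proteins, TGACGTCA, the cyclic AMP response element, CACGTG, an E-box, and TATAAA, the TATA box. The Piwil1 window is chr5:128735996-128736295 on the plus strand, the Trib3 window chr2:152344011-152344310 on the minus strand and the Chac1 window chr2:119350992-119351291 on the plus strand.
Piwil1: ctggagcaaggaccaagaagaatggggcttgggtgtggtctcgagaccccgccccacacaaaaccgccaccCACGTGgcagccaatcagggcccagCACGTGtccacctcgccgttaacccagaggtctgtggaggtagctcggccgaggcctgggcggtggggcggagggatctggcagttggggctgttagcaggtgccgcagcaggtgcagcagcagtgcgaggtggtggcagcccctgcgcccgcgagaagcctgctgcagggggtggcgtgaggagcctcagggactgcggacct
Trib3: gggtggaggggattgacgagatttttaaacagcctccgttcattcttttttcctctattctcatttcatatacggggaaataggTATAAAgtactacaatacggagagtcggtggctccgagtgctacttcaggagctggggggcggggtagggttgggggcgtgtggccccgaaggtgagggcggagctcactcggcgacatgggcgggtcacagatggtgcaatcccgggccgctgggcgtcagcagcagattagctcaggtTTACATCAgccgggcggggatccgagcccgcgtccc
Chac1: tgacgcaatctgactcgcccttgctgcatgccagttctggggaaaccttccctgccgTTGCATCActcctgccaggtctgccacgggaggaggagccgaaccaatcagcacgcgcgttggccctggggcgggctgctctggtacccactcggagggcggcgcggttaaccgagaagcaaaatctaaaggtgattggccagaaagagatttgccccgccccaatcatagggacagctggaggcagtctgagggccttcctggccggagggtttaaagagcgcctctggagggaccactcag
The Piwil1 window held 2 CACGTG matches, the Trib3 window 1 TATAAA and 1 TGATGNAA match, and the Chac1 window 1 TGATGNAA match. No match in these windows shared a base with another.

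The control groups lay far apart, while the groups that carried the constructs lay close together. The median shared transcript had 25.2, 25.5 and 28.7 normalized counts in the 3 overexpression controls and 175, 161 and 168 in the 3 knockdown controls. It had 70.9, 64.5 and 78.7 in the overexpression libraries and 70.2, 68.2 and 76.2 in the knockdown libraries. The controls thus fell on either side of both construct groups, with no overlap between the 2 control groups. Between the control groups, 86 of 448 transcripts (19.2%) were within 2-fold of each other on the authors' scaling, with a median difference of 3.20 log2, or 9.21-fold, knockdown control over overexpression control. Between the construct groups, 422 of 448 (94.2%) were within 2-fold, with a median difference of 0.05 log2. The range from the lower to the upper quartile ran from 1.13 to 3.94 log2 between controls and from −0.15 to 0.22 log2 between constructs. Log2 values throughout are log2(normalized count + 1), which understates differences of transcripts with few reads.

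**Figure D1:**
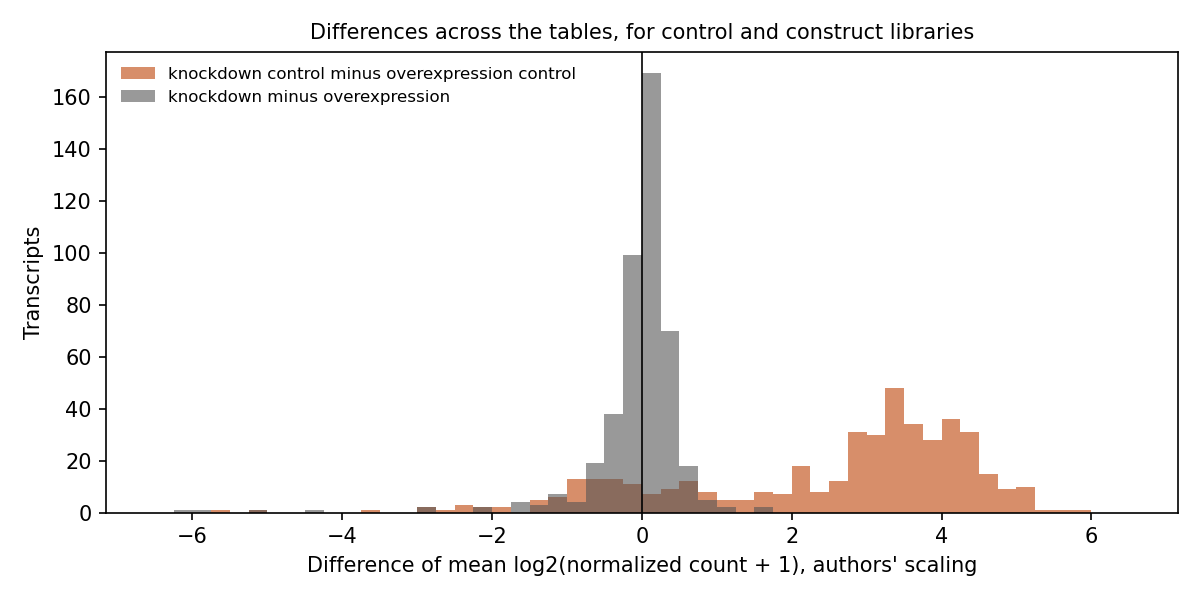
Number of shared transcripts (vertical axis) by the difference of mean log2(normalized count + 1) on the authors' scaling (horizontal axis), in red for knockdown control minus overexpression control and in grey for knockdown minus overexpression, with 3 libraries per group. The grey values gather at 0 with a median of 0.05, and the red ones lie mostly to the right, with a median of 3.20.

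The separation was largest among transcripts that the authors' deposited tables list as higher in overexpression and lower in knockdown. These were 324 of the 448 (72.3%). Their library medians were 13.8 to 16.6 normalized counts in the overexpression controls, 58.5 to 74.7 in the overexpression libraries, 64.96 to 69.97 in the knockdown libraries and 158 to 181 in the knockdown controls. Of the 324, 0 were within 2-fold between the controls and 315 were within 2-fold between the constructs. A transcript enters this class only if the overexpression control is below its construct group and the knockdown control above its own, so its control difference is partly set by the selection.

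The other classes did not show this step on the authors' scaling. The 81 transcripts lower under both constructs had library medians of 123 to 130 in the overexpression controls and 126 to 135 in the knockdown controls, and 44.8 to 46.8 and 38.5 to 42.1 in their construct groups. Of these, 50 were within 2-fold between the controls. The 36 transcripts higher under both constructs had medians of 237 to 272 in the overexpression controls and 170 to 193 in the knockdown controls, and 31 were within 2-fold. The 7 transcripts lower in overexpression and higher in knockdown had medians of 440 to 499 and 229 to 280 in the 2 control groups. All comparisons of a construct with its control share these control libraries.

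**Figure D2:**
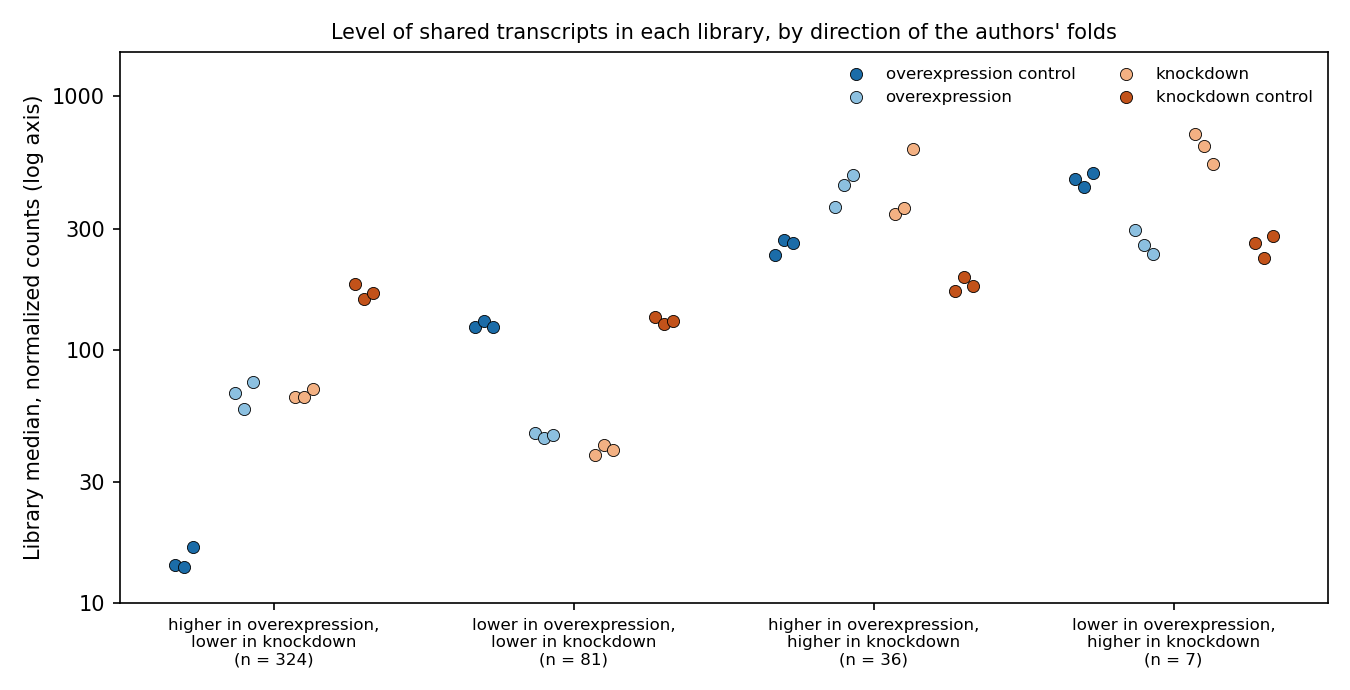
Median normalized count of each of the 12 libraries (vertical log axis) over the shared transcripts, split by the direction of the authors' folds (horizontal axis, with the number of transcripts). Each point is 1 library. In the class of 324 the overexpression controls sit between 13.8 and 16.6 and the knockdown controls between 158 and 181, while in the class of 81 both control groups sit between 123 and 135.

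Because the tables were scaled separately, levels were next compared within libraries. Each library's log2 values were centred on its own median over the 448 transcripts, which took away a shift of 2.62 log2 between the control groups, and the difference given below as centred is the knockdown control minus the overexpression control on that scale. A transcript was called when the 3 libraries of one group did not overlap the 3 of the other and the group means differed by at least 1 log2, or 2-fold. In all, 270 transcripts were called, 60.3% of those compared. Of these, 146 were higher in the knockdown controls, 32.6%, and 124 were lower, 27.7%. All 146 higher ones were in the class of 324, which held 7 of the lower ones. The other lower ones were 75 in the class of 81, 35 in the class of 36 and 7 in the class of 7. The split by direction thus largely follows the classes, which were set with these same controls. By lack of overlap alone, 54.5% were higher and 34.6% lower. Among the uncalled, 129 transcripts had groups that did not overlap but differed by less than 2-fold, and 49 had groups that overlapped. The called transcripts nearest the limit differed by 1.002 log2 and the separated but uncalled ones reached 0.996.

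On the authors' own scaling, without centring, 361 transcripts were called, 80.6%, with 338 higher in the knockdown controls, 75.4%, and 23 lower, 5.13%. The centring takes the same 2.62 log2 from each difference, so a transcript called higher after centring lies above 0 on the authors' scaling by construction. Of the 124 called lower after centring, 23 were lower on the authors' scaling, 14 were higher and 87 were not called. The median SD among replicates on the centred scale was 0.24 log2 in the overexpression controls and 0.11 in the knockdown controls.

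The ranks of the transcripts within a library, which do not depend on scaling, also differed between the control groups. Spearman's rho over the 448 transcripts was 0.972 to 0.974 among overexpression controls and 0.983 to 0.992 among knockdown controls. Across the control groups it was 0.521 to 0.568, the lowest range among all pairs of groups, and between overexpression and knockdown libraries it was 0.905 to 0.949. Knockdown controls were nearer in rank to the construct groups, at 0.815 to 0.879, than overexpression controls were, at 0.612 to 0.706. These values describe 448 selected transcripts that share libraries and scaling. The mean rank of 72 transcripts was over 100 places better in the knockdown controls, and that of 82 was over 100 places worse. Ranks are by normalized count and not per length, so only a transcript's move between libraries is read from them.

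**Figure D3:**
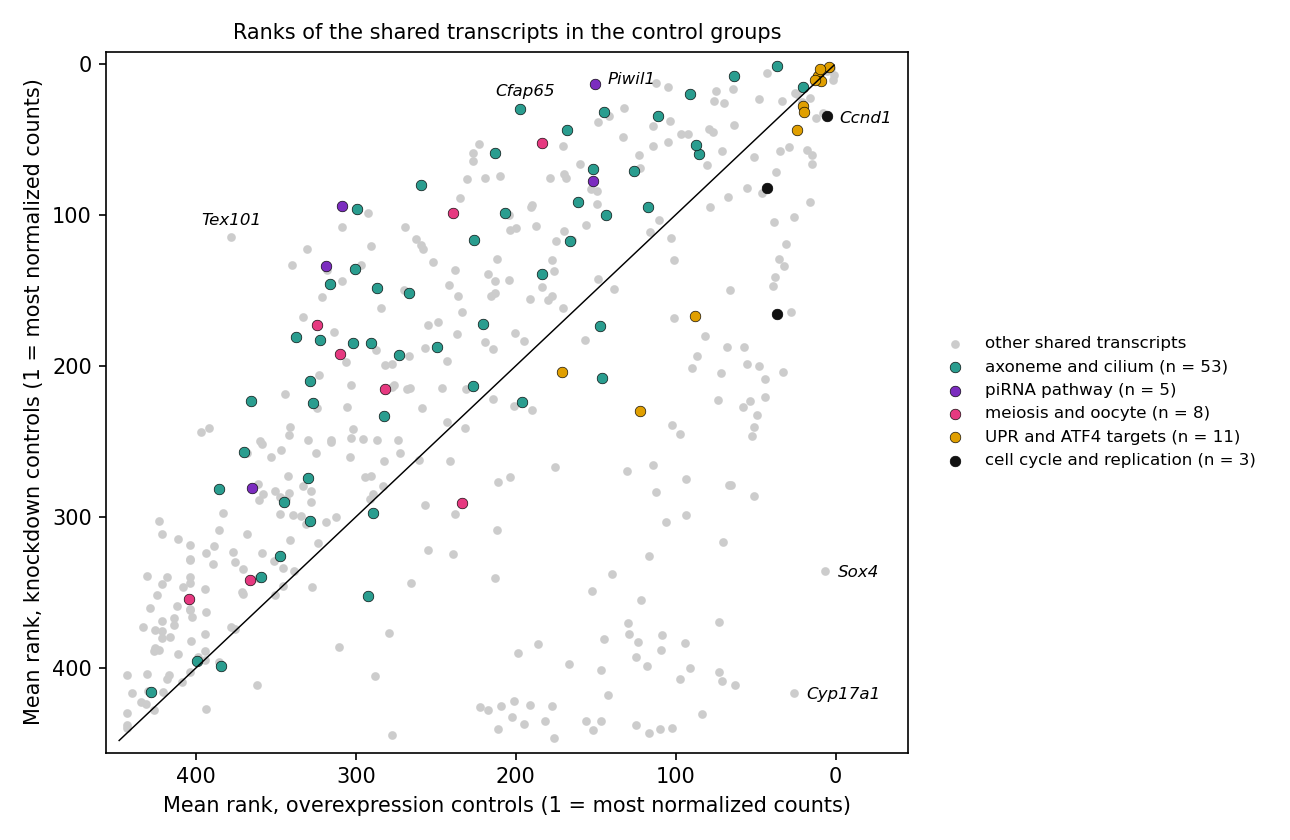
Mean rank of each shared transcript in the 3 overexpression controls (horizontal axis) and the 3 knockdown controls (vertical axis), where 1 is the transcript with the most normalized counts, both axes run from high rank numbers to 1 (right and top), and the line marks equal ranks. Colours mark gene lists. The piRNA genes lie above the line, and the 3 cell cycle genes, Sox4 and Cyp17a1 lie below it.

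The piRNA pathway had the highest centred median among lists with at least 3 members. Of 5 members, 4 were called higher in the knockdown controls and none lower, against 32.6% higher and 27.7% lower among all shared transcripts. The median centred difference was 2.08 log2 against 0.58 over all 448 transcripts, and 4.70 against 3.20 on the authors' scaling. All 5 were in the class of 324, in which 45.1% were called higher and 2.16% lower after centring, with a median of 0.91 log2, and which the selection on these controls partly sets. Piwil1, the PIWI protein of late spermatogenic cells (chr5:128736071-128755474), had 49.3, 62.1 and 62.0 normalized counts in the overexpression controls and 2210, 1924 and 2115 in the knockdown controls. Every knockdown control thus exceeded every overexpression control, and the overexpression and knockdown libraries lay between them at 528 to 929 and 646 to 926. Its centred difference was 2.53 ± 0.09 log2 (SE, 3 libraries a group), and its mean rank went from 150 to 13.7. In bulk RNA, fewer cells of a type and less RNA per cell cannot be told apart.

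Tdrd9, a tudor-domain helicase of transposon silencing (chr12:111971488-112068854), had 11.1, 12.2 and 13.9 normalized counts in the overexpression controls and 426, 397 and 418 in the knockdown controls. The groups did not overlap, and the centred difference was 2.33 ± 0.04 log2. Mov10l1, the helicase that handles piRNA precursors, had 14.1, 9.97 and 9.25 against 314, 323 and 292, a centred difference of 2.08 ± 0.23. Rnf17, a tudor-domain protein of spermatids, had 4.02, 6.65 and 9.25 against 119, 119 and 127, a centred difference of 1.44 ± 0.25. The low overexpression control values are few reads, since 1 read was worth 0.817 to 1.22 normalized counts in the 5 control libraries where reads could be recovered. Mael, a transposon silencing factor, was not called: it had 59.4, 49.9 and 64.7 against 580, 440 and 518, a centred difference of 0.50 ± 0.11.

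Meiosis genes followed, with 5 of 8 members called higher in the knockdown controls and none lower, against 32.6% and 27.7% of all shared transcripts. Their median centred difference was 1.37 log2 (3.999 on the authors' scaling). All 8 were in the class of 324, with its 45.1% higher and 2.16% lower. Sycp2, a lateral element protein of the synaptonemal complex, had 10.1, 11.1 and 10.2 normalized counts in the overexpression controls and 241, 242 and 239 in the knockdown controls. Both groups were narrow, and the centred difference was 1.78 ± 0.09. Stag3, a subunit of meiotic cohesin, had 34.2, 46.5 and 37.9 against 712, 623 and 756, a centred difference of 1.49 ± 0.16. Syce1, a central element protein of the same complex, differed by 1.40 ± 0.29, and Meioc, which meiotic prophase needs, by 1.39 ± 0.21. Sycp1, the transverse filament protein, went the other way on the centred scale without being called, at −0.44 ± 0.06, and was higher by 2.19 on the authors' scaling. It had 25.2, 22.2 and 26.8 against 125, 107 and 116 normalized counts.

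Among broader germ cell genes only Tex101 and Ddx25 were listed in both tables. Tex101, a surface glycoprotein of germ cells (chr7:24668012-24672050), had 3.0, 5.5 and 8.3 normalized counts in the overexpression controls and 398, 321 and 323 in the knockdown controls. Its centred difference of 3.17 ± 0.31 log2 was the highest among the 448 transcripts, and its mean rank went from 378 to 115. Ddx25, a testis RNA helicase, was not called, at 0.72 ± 0.18, with 22.1, 19.9 and 32.4 against 287, 211 and 274. Of the 6 defining germ cell markers chosen to check the label, Ddx4, Dazl, Zbtb16, Gfra1, Dppa3 and Prdm1, 0 were among the transcripts analysed here, so the FGSC label could not be checked with them.

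The axoneme made up the biggest functional list, 53 transcripts, all in the class higher in overexpression and lower in knockdown. On the centred scale 25 were called higher in the knockdown controls (47.2%) and 1 lower, with a median of 0.93 log2, close to the 45.1% and 0.91 log2 of their class. Among all shared transcripts 32.6% were called higher. On the authors' scaling all 53 were called higher, with a median of 3.56, in a class with 0 transcripts within 2-fold. Cfap65, a protein of the sperm flagellum (chr1:74902071-74935626), had 30.2, 34.4 and 41.6 normalized counts in the overexpression controls and 1209, 1106 and 1175 in the knockdown controls. The groups were well apart, its centred difference was 2.39 ± 0.08 and its mean rank went from 197 to 30. Dnah6, a dynein heavy chain of the inner arms, had 13.1, 13.3 and 13.9 against 426, 411 and 376, a centred difference of 2.19 ± 0.07. Cfap46, of the central pair apparatus, differed by 1.92 ± 0.21. Wdr63, a dynein intermediate chain, had 11.1, 8.9 and 0 against 177, 171 and 159. Its centred difference of 2.49 ± 1.21 rested on the library at 0, being 1.28 without overexpression control replicate 3. The 1 lower member was Ift140, an intraflagellar transport protein, at −1.002 ± 0.08 on the centred scale and 1.62 higher on the authors' scaling.

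Dynein heavy chains, the motors of the arms, were listed with 9 members, of which 7 were called higher after centring and none lower (median 1.15 log2), against 32.6% and 27.7% of all shared transcripts. All 9 were in the class of 324, in which 45.1% were called higher and 2.16% lower. Dnah1 had 73.4, 44.3 and 75.8 normalized counts in the overexpression controls and 1238, 1004 and 1072 in the knockdown controls, a centred difference of 1.49 ± 0.23. Dnah7a and Dnah7c each differed by 1.87, with SEs of 0.33 and 0.16, but these are near-identical copies, and how reads were divided between them is not given. Dnah10 was not called, at −0.42 ± 0.08 after centring, with 83.5, 88.7 and 93.4 against 457, 409 and 371 normalized counts.

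Genes of spermatid chromatin and sperm structure were divided, as were the classes they belong to. Of 17 in both tables, 4 were called higher, 7 lower and 6 neither, against 32.6% higher and 27.7% lower among all shared transcripts, with a centred median of 0.15 log2, which was −0.08 under TMM scaling. The 4 higher ones included the alpha-tubulins Tuba3a (1.86 ± 0.06) and Tuba3b (1.69 ± 0.04), a pair of near-identical copies. Tuba3a had 94.6, 86.4 and 97.1 normalized counts in the overexpression controls and 2255, 2005 and 2018 in the knockdown controls. Smcp, a cysteine-rich protein of the sperm mitochondrial sheath (chr3:92583866-92589073), had 147, 172 and 169 in the overexpression controls and 66.2, 55.4 and 61.2 in the knockdown controls. It was lower on both scales, by −4.03 ± 0.08 centred and −1.40 on the authors' scaling. Odf1, an outer dense fibre protein, had 97, 144 and 122 against 56.4, 58.9 and 46.5, with centred and authors' differences of −3.76 ± 0.20 and −1.14. Of the members, 10 were in the class of 324 and 7 in the class lower under both constructs, classes that were set with these same controls. In the class of 324, 45.1% were called higher and 2.16% lower, and in the other 92.6% were called lower and none higher. The split of this list therefore cannot be told apart from its mix of classes.

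**Figure D4:**
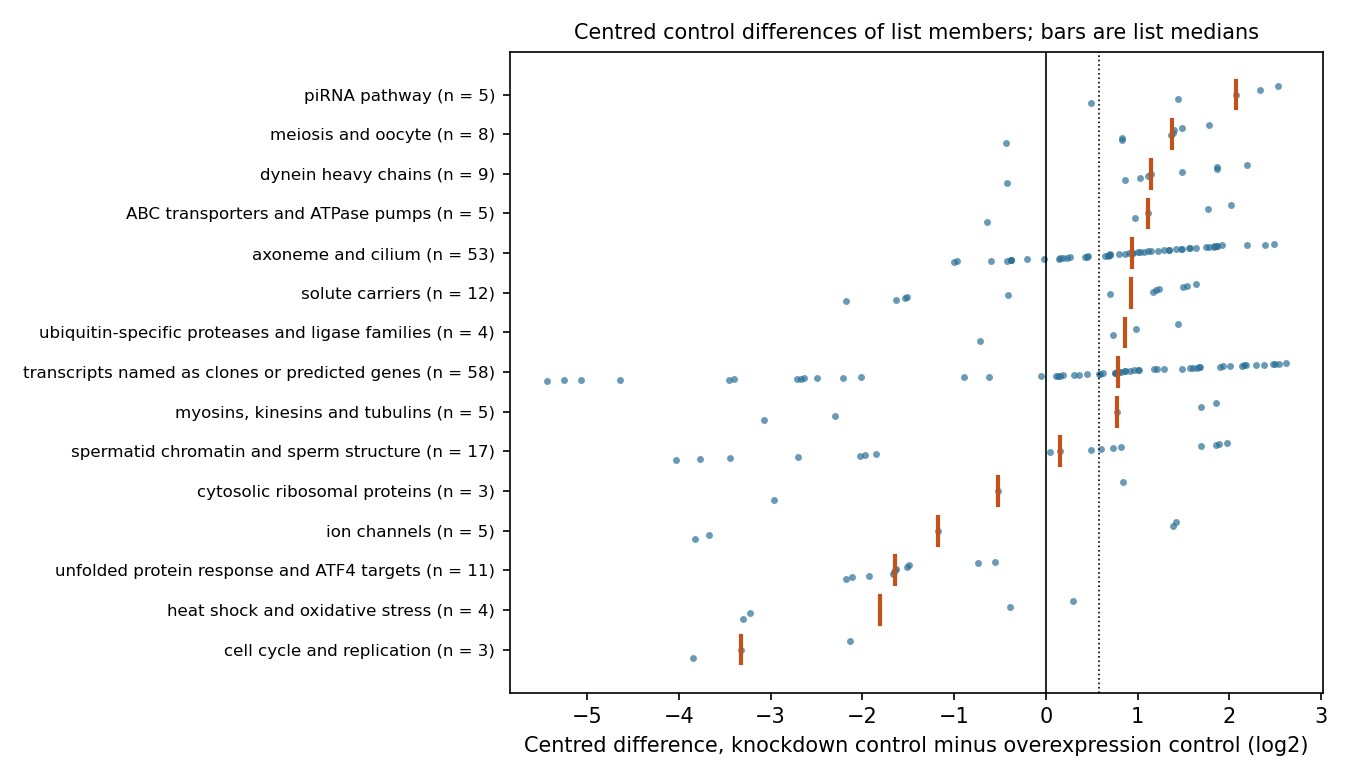
Centred control difference in log2 (horizontal axis, knockdown control minus overexpression control) of each member (point) of the gene lists with at least 3 members in both tables (vertical axis), with list medians as bars, and the median of all 448 transcripts, 0.58, as the dotted line. piRNA and meiosis medians lie at 2.08 and 1.37, and the medians of ATF4 targets and cell cycle genes at −1.65 and −3.32.

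Cell cycle and metallothionein genes were at the other end. All 3 cell cycle members were called lower after centring (median −3.32 log2), against 27.7% of all shared transcripts. Of the 3, 2 were in the class of 36 higher under both constructs, in which 97.2% were called lower. The remaining 1 was in the class of 81 lower under both, in which 92.6% were called lower. On the authors' scaling Ccnd1 alone was called lower, with Ccne1 at −0.69 and Cdkn1b at 0.49. Ccnd1, cyclin D1 of the G1 phase (chr7:144929931-144939831), had 2320, 2510 and 2518 normalized counts in the overexpression controls and 1043, 1052 and 1056 in the knockdown controls. Its differences were −3.84 ± 0.06 centred and −1.22 on the authors' scaling, and its mean rank went from 5.67 to 35. Ccne1, cyclin E1, had 406, 432 and 386 against 239, 255 and 262 (centred −3.32 ± 0.12). Cdkn1b, the inhibitor p27 of cyclin-dependent kinases, had 385, 305 and 326 against 448, 474 and 500, so that its centred −2.14 ± 0.15 became 0.49 on the authors' scaling.

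Mt1, a metal-binding metallothionein, had 3399, 3391 and 3535 normalized counts in the overexpression controls and 2425, 2262 and 2159 in the knockdown controls. Its differences were −3.22 ± 0.05 centred and −0.59 on the authors' scaling, and its neighbour Mt2 differed by −3.30 ± 0.07 and −0.67. Only 3 cytosolic ribosomal protein transcripts were compared, and Rps14 alone was called, lower (33.3%), against 27.7% of all shared transcripts. Its differences were −2.96 ± 0.10 centred and −0.34 on the authors' scaling. Of the 3, 1 was in the class of 36, in which 97.2% were called lower. The other 2 were in the class of 324, in which 2.16% were. Hspa1a and Hspa1b, near-identical heat shock genes in the same stress list as Mt1 and Mt2, were not called, at 0.30 ± 0.14 and −0.39 ± 0.15. Of the 4 members of that list, 2 were in the class of 36 higher under both constructs, in which 97.2% were called lower. The other 2 were in the class of 81 lower under both, in which 92.6% were called lower.

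Stress genes driven by ATF4 had a direction that depended on the scale, as did the class they belong to. Of 11 targets, 9 were called lower after centring and none higher (median −1.65 log2), against 27.7% lower among all shared transcripts, whereas on the authors' scaling 4 were called higher and none lower (median 0.98). All 11 were in the class of 81 lower under both constructs, in which 92.6% were called lower and none higher after centring, and whose median turned from −2.29 to 0.33. Trib3, a pseudokinase induced by stress (chr2:152337425-152344060), had 1392, 1313 and 1384 normalized counts in the overexpression controls and 5235, 4813 and 5100 in the knockdown controls. Both control groups were far above the overexpression libraries, at 171 to 223, and the knockdown libraries, at 190 to 220. Its centred difference of −0.74 ± 0.06 was not called and its difference on the authors' scaling was 1.89, and in rank it was near the top of both control groups.

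Chac1, which degrades glutathione (chr2:119351242-119354326), had 727, 657 and 690 normalized counts in the overexpression controls and 1132, 1101 and 1119 in the knockdown controls. It was called lower after centring, at −1.93 ± 0.08, and was 0.69 higher on the authors' scaling. The same turn was seen for Slc7a11, the cystine importer (−2.18 ± 0.06 and 0.45), Sesn2, a stress-induced sestrin (−2.12 ± 0.09 and 0.51), and Ddit4, an inhibitor of mTORC1 (−1.65 ± 0.10 and 0.98). Iars, an isoleucyl-tRNA synthetase, and Pck2, the mitochondrial form of PEP carboxykinase, were among the 5 transcripts with the highest control levels and turned in the same manner, from −2.03 to 0.59 and from −1.87 to 0.75. Asns, asparagine synthetase, had 1070, 1174 and 1250 normalized counts in the overexpression controls and 2709, 2409 and 2561 in the knockdown controls, with centred and authors' differences of −1.49 ± 0.04 and 1.14.

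The TGATGNAA motif shown in the Trib3 and Chac1 promoters was found in 7 of the 15 promoter windows of these 11 genes (46.7%). These genes were listed for being ATF4 targets, so the element is expected among them, and some have more than 1 window. TGATGNAA was in 9.73% of the windows of transcripts called lower after centring and 3.42% of those called higher. It was in 6.60% of all shared windows and 3.97% of the 32841 windows of the reference table. The lower set holds 9 of the 11 listed genes, so its share is not separate from theirs. The CACGTG motif shown for Piwil1 was in 11.97% of windows of the higher and 7.96% of windows of the lower transcripts, against 11.3% of all shared ones and 7.15% of all windows. TGACGTCA was in 3.42%, 2.65%, 2.37% and 1.79% of these sets, and TATAAA in 9.40%, 5.31%, 8.71% and 13.6%. In the 49 windows of the axoneme genes TGATGNAA was found in 2.04%. A match is a description of the letters in these windows.

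**Figure D5:**
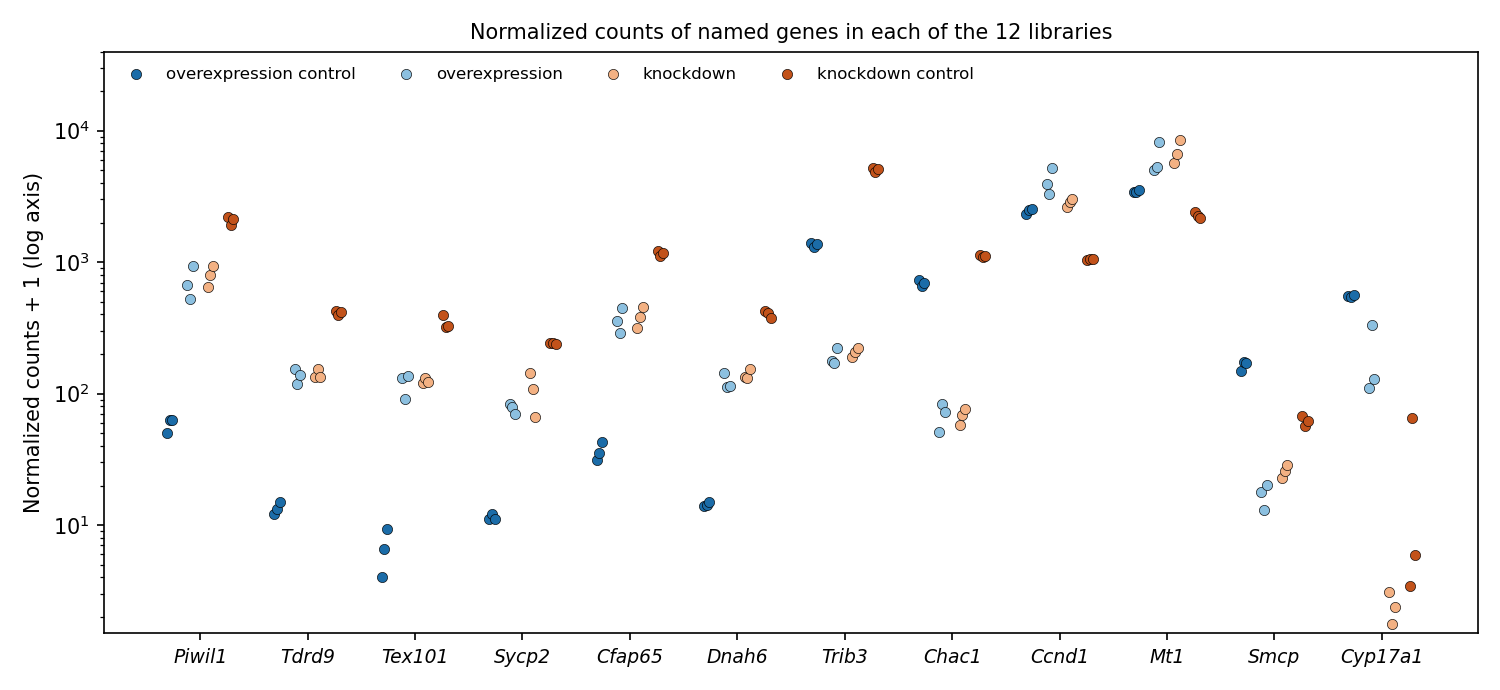
Normalized counts plus 1 (vertical log axis) of 12 named genes in each of the 12 libraries, 1 point per library, coloured by group. Piwil1, Tdrd9, Tex101, Sycp2, Cfap65 and Dnah6 step up from overexpression controls through both construct groups to knockdown controls, Trib3 and Chac1 are high in both control groups, and Cyp17a1 is spread widely among the knockdown controls.

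The largest negative differences were smaller for the presence of 1 library that stood apart. Cyp17a1, a steroid hydroxylase of hormone-producing cells (chr19:46667165-46673000), had 548, 543 and 561 normalized counts in the overexpression controls and 2.5, 64.1 and 4.9 in the knockdown controls. Its centred difference was −8.28 ± 1.34 log2, and −9.59 without knockdown control replicate 2. Sox4, a transcription factor of progenitor cells, had 1835, 2564 and 2001 against 27.8, 265 and 29.4, with a centred difference of −7.73 ± 1.099, and −8.81 without that replicate. In 4 transcripts that replicate was over 2 log2 above both its fellows, these 2 and Zbtb8b and Sh3bp4, of which the last pair was named after seeing the values. The same library was also high for stromal and vascular markers in the knockdown table. Collagen Col1a1 had 170, 735 and 185 normalized counts in the 3 knockdown controls, Acta2, smooth muscle actin, 187, 722 and 162, and the endothelial cadherin Cdh5 7.35, 50.2 and 12.2. The link of these marker values to the differences of Cyp17a1 and Sox4 was not tested. Both Cyp17a1 and Sox4 lay below all overexpression controls in every knockdown control.

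Of the 11 lists of other cell types' markers, 6 had 0 members in both tables and 5 had 1. Besides Cyp17a1 these were S100a4 (fibroblast list), with 962, 1077 and 1176 against 1106, 985 and 883 normalized counts, Ctsg, a protease of myeloid cells, Gzmb, the granzyme B of lymphocytes, and Chgb, a granin of neuroendocrine cells. S100a4 overlapped between the groups on the authors' scaling and was called lower after centring, at −2.74 ± 0.09. Gzmb had 142, 167 and 156 normalized counts in the overexpression controls and 1489, 1250 and 1315 in the knockdown controls, and was not called after centring, at 0.49 ± 0.09. Ctsg was not called, at 0.35 ± 0.18, and Chgb was called higher, at 1.46 ± 0.71, from 4.0, 0 and 2.8 against 53.1, 38.1 and 42.9.

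Other transcripts with large negative differences were lower in the knockdown controls on both scales. Sned1, an extracellular matrix glycoprotein, had 152, 133 and 123 normalized counts in the overexpression controls and 18.0, 27.7 and 29.4 in the knockdown controls (centred −5.05 ± 0.28). Basp1, a membrane-associated signalling protein, had 173, 224 and 189 against 33.5, 40.7 and 44.1 (−4.90 ± 0.19). Gata1, a transcription factor of blood and Sertoli cells, had 122, 115 and 128 against 58.0, 42.4 and 39.2 (−4.01 ± 0.15). Rhox8, a reproductive homeobox gene, had 76.5, 192 and 113 against 38.4, 42.4 and 45.3 (−4.10 ± 0.40). Kcnq1ot1, a long noncoding RNA antisense to Kcnq1, differed by −3.83 ± 0.10, and without strand information its reads and those of Kcnq1 cannot be told apart.

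Further transcripts with large positive differences had few reads in the overexpression controls. Cers3, a ceramide synthase of skin and testis, had 1.01, 6.65 and 3.70 normalized counts there and 164, 135 and 152 in the knockdown controls (centred 2.56 ± 0.55). Tcam1, a testicular cell adhesion molecule, had 7.04, 11.1 and 8.32 against 344, 289 and 289 (2.36 ± 0.19). Hpcal4, 1700009C05Rik, Galntl6 and Mypn were listed at 0 in all 3 overexpression controls, and their means in the knockdown controls were 19.5 ± 4.10, 25.03 ± 9.28, 44.9 ± 3.89 and 15.8 ± 3.13 normalized counts (SD, n = 3). No fold is given for these 4, which were named because they were at 0.

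Transcripts nearest 0 after centring show what the removed shift looked like in the deposited values. Hspb9, a small heat shock protein of testis, had 34.2, 35.5 and 35.1 normalized counts in the overexpression controls and 230, 236 and 200 in the knockdown controls, a centred difference of 0.00 ± 0.10 and one of 2.63 on the authors' scaling. Ttll13, a tubulin glutamylase, differed by −0.02 ± 0.18, Dlec1 by 0.04 ± 0.14 and Pgam2, a phosphoglycerate mutase, by 0.05 ± 0.09 after centring.

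Ratios between 2 transcripts of the same library need neither scaling. The pairs were chosen for their unlike centred differences, so the ratios restate those differences without a scale. The 2 differences of a pair were opposite in sign except for Trib3 and Ccnd1, which were both negative, at −0.74 and −3.84. Piwil1 per Ccnd1 was 0.0235 ± 0.00197 in the overexpression controls and 1.98 ± 0.146 in the knockdown controls (SD, n = 3), an 84.3-fold step. Cfap65 per Ccnd1 differed 76.9-fold and Tex101 per Mt1 93.5-fold. Trib3 per Ccnd1 was 0.558 ± 0.0391 and 4.81 ± 0.222, so Trib3 was 8.62-fold higher in the knockdown controls when measured against Ccnd1. Measured against Piwil1 it was lower there, at 23.9 ± 3.80 per Piwil1 in the overexpression controls and 2.43 ± 0.0679 in the knockdown controls. In each of these ratios the 3 knockdown controls did not overlap the 3 overexpression controls.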

How the data were processed

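Trizol extraction preceded TruSeq RNA library preparation, per the labels' protocols. Alignment software (Bowtie 0.12.2) and builds (mm10, GRCm38) are as listed in the submitters' processing notes. For counting, testing and strand handling, no tool is named in any source used here. In each of 2 tables, the authors deposited normalized counts, a signal formed as reads divided by 1 size factor per library. Also deposited were the authors' log2 folds with their errors, a test score and p-values. Folds in the authors' deposited tables were at least 1.50 in size and adjusted p-values at most 0.05, so both hold selected transcripts.

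The 448 transcripts in both tables were matched by RefSeq accession (445) or symbol (3) to reference gene tables. Values were turned into log2(normalized count + 1) and centred on each library's median over the 448. Differences are knockdown control minus overexpression control, with an SE from 3 libraries a group. No test was run, since the groups sit in tables that were normalized separately and the selection used these controls. Whole reads could be recovered for 10 of 12 columns (100% of their values whole within 0.001 read). No count model was fitted, since overexpression control replicate 1 gave none. Shared transcripts held 58535 to 70635 reads in the other overexpression controls and 136121 to 215481 in the knockdown controls; whole-library depth is not known. Replicate control pairs differed beyond counting noise, with a chi-square per transcript of 1.55 to 2.91. Alternatives were the pseudocount, a filter, other centrings including TMM (edgeR 4.0.16, R 4.3.3), the authors' scaling and leaving out each replicate. The calculation was tested on simulated data with as many raised as lowered transcripts. That simulation cannot show how centring behaves where most transcripts were selected in the same direction, as in the class of 324. Python 3.11.15, pandas 2.3.3 and numpy 2.4.6 were used.

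Members, gene lists and the naming rule were chosen with earlier results of these data known. Named genes are the 12 largest differences in each direction and the 5 smallest with a mean of at least 50 normalized counts over the controls and no clone name, the 5 with the highest levels, and up to 4 of each list with at least 3 members, plus others that the text says were picked otherwise or that are further members of a list. A transcript that the rule picks is not reported here. Promoters came from the RefSeq table, which matched 348 shared genes with 379 windows.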

Additional observations from a re-analysis of the deposited data

How the results depend on the processing

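The counts of 146 higher and 124 lower transcripts moved with the scaling. Higher transcripts numbered 90 with a pseudocount of 5, 292 when values were scaled to the library total, and 338 both on the authors' scaling and with that scaling shifted by the construct libraries, a setting chosen after seeing the data. Lower transcripts numbered 23 and 24 under the last 2. The share of higher among called transcripts was 54.1% as reported, 42.9% with a pseudocount of 5, 63.8% by ranks, 77.7% with library totals and 93.6% and 93.4% under the last 2. A pseudocount of 0.5, a minimum mean of 10, centring on the mean and TMM gave 132 to 171 higher and 120 to 129 lower. Leaving out 1 library gave 146 to 149 higher and 122 to 127 lower, and 83 to 86 transcripts within 2-fold between controls and 420 to 427 between constructs. Of the 65 named genes that were recomputed, 9 called lower changed sign on the authors' scaling and its shifted form. The values became 0.49 and 0.44 for Cdkn1b, 0.69 and 0.64 for Chac1, 0.98 and 0.93 for Ddit4, and 0.59 and 0.54 for Iars. They became 0.96 and 0.91 for Jdp2, 0.75 and 0.70 for Pck2, 0.51 and 0.46 for Sesn2, 0.99 and 0.94 for Slc6a9, and 0.45 and 0.40 for Slc7a11. Asns and Ift140, also called lower, were not among the 65 and were positive on the authors' scaling too. The list medians of the ATF4 targets became 0.98 and 0.93, and that of the ion channels, a list that by its name prefix took in Kcnq1ot1, went from −1.18 to 1.45 and 1.40, and to 0.0617 with library totals. These turns follow from the construction of the settings, which add a shift of up to 2.62 log2. With replicate numbers as a replicate block, 146 were higher and 124 lower, as without it. Same-numbered controls did not deviate together (r of −0.07, 0.03 and 0.06), and different-numbered ones ran from −0.11 to 0.10. No pairing by number was seen, but this check over selected transcripts cannot exclude one. In the overexpression controls 7 to 14 shared transcripts a library were listed at 0, against 0 in the knockdown controls; the part of depth in this was not tested.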

Other observations

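Transporters with both tables' values were mixed. Of 12 solute carriers, 6 were called higher in the knockdown controls and 4 lower after centring, against 32.6% and 27.7% of all shared transcripts. The higher ones included Slc34a2, a phosphate transporter (1.64 ± 0.30 log2), and the 4 lower ones were Slc1a4, Slc38a7, Slc6a9 and Slc7a11. Of 5 ABC transporters and ATPase pumps, 3 were called higher, among them Abcc12 (2.02 ± 0.29), and none lower, against the same shares. All 5 were in the class of 324, in which 45.1% were called higher and 2.16% lower. The solute carriers had 8 members in that class and 4 in the class lower under both constructs, in which 92.6% were called lower. Of 58 transcripts with clone or predicted names, 23 were called higher (39.7%) and 12 lower (20.7%), near the 32.6% and 27.7% of all shared transcripts.

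By position, 15.8% of the 146 higher transcripts and 7.26% of the 124 lower ones were on chromosome 7, against 10.04% of all shared transcripts and 8.33% of genes of the reference table. None of the higher and 3 of the lower ones were on chromosome X. It held only 3 of all 448 shared transcripts, and 2512 of the 49943 genes of the reference table. The median gene span was 25.1 kb for the higher, 17.1 kb for the lower and 19.3 kb for all shared transcripts. These shares were counted after the values were seen.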
